A study of Mus musculus with 9 samples.

Results

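The unfolded protein response is the programme by which a cell answers a load of unfolded protein in the endoplasmic reticulum (ER). Sensors in the ER membrane, among them the kinase and ribonuclease IRE1 (gene Ern1) and the membrane-bound transcription factor Atf6, pass the signal to the nucleus. There Atf6 and the factor encoded by Xbp1 raise transcription of ER chaperones and of genes for ER-associated degradation, in which misfolded proteins are pulled back to the cytosol and destroyed by the proteasome. In macrophages the pathway is of interest because the cells secrete large amounts of protein once activated, and because Toll-like receptor signalling has been reported to engage IRE1 and Xbp1. Described here are 10 genes of this pathway, of 50600 genes in the tables, chosen by name: the sensors Ern1 and Atf6, the transcription factor Xbp1, the chaperones and folding enzymes Hspa5, Hsp90b1, Pdia4 and Dnajb9, and the degradation genes Herpud1, Edem1 and Sel1l.

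The cells were RAW-Blue, a mouse macrophage line with a reporter for inflammatory signalling, so all groups share 1 line and its reporter, and all were grown in medium with the antibiotics Normocin, Zeocin and Pen-Strep. The labels name 9 samples in 3 groups of 3: no treatment (None), lipopolysaccharide at 1 µg/ml for 24 hours (LPS), and the same LPS treatment preceded by 16 hours with exosome-like nanovesicles prepared from Peucedanum japonicum, a plant (LPS-PjELNs). LPS, from the outer membrane of Gram-negative bacteria, is recognised by the receptor Tlr4. The 3 None and 3 LPS libraries are compared here, and LPS-PjELNs samples were not analysed here. Nothing in the labels places the replicates in separate cultures, so the p-values speak only to the spread among these libraries, which may be technical.

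The libraries held 14650825 to 17665201 rounded counts, and 11916 genes had enough counts to be tested, all 10 members among them. Macrophage markers were abundant, with 9 of 10 tested (all except Mertk, at or near 0) and a summed level of 12249 to 13730 CPM (counts divided by the library size in units of 1e6, after scaling by the TMM method) in None and 22382 to 23994 CPM in LPS. The sum was led by Lyz2, which rose from 8337 to 16610 CPM on average, and Cd14 also rose (532 to 2903 CPM), while Csf1r (1787 to 713 CPM) and Ptprc (333 to 242 CPM) fell. Markers of other cell types were low or at 0. The 5 T cell markers summed to 1.40 to 2.22 CPM in None and 3.84 to 6.42 CPM in LPS, nearly all of it Lck, with Cd3e, Cd3d and Cd8a at 0. Lck was called higher in LPS (log2 fold change 1.53, adjusted p = 0.000272, edgeR). Of the B and plasma cell markers, Ms4a1 was at 0 and Cd79a averaged 0.228 CPM without LPS and 1.29 CPM with it. Cd79a was also called higher (log2 fold change 2.47, adjusted p = 0.000128, edgeR). The 5 fibroblast markers summed to at most 0.0517 CPM in None and 2.63 CPM in LPS, with Col1a2 at 0. The LPS sum was led by Dcn, at 0 in None and at 2.416, 0.6535 and 0.505 CPM in the LPS libraries. Epithelial markers reached at most 0.155 CPM, with Epcam, Krt8 and Krt5 at 0. The part of these other markers in the results was not tested. LPS replicate 1 stood apart from the other LPS libraries on the second axis of variation (23.0 against -7.5 and -16.0, with 3.23% of the variance). Without it 6 members were still called higher and 3 lower.

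Of the 10 members, 6 were higher in LPS, 3 were lower and 1 was not called at an adjusted p of 0.05 (edgeR's quasi-likelihood test, adjusted over all genes tested by the Benjamini-Hochberg method). The folding enzyme Pdia4 and the chaperone Hspa5 rose most, by 131% and 93.5%. The sensor Ern1, the degradation genes Sel1l and Edem1 and the chaperone Hsp90b1 rose less, by 26.1% to 46.6%. The transcription factor genes Xbp1 and Atf6 and the cochaperone gene Dnajb9 fell, by 33.0%, 26% and 18.9%, and Herpud1 did not pass the test. These are levels over whole cultures, in which fewer expressing cells and less RNA per cell cannot be told apart. In the same comparison 69.1% of all genes tested were called, 34% higher and 35.1% lower. The members' median log2 fold change was 0.37 against -0.03 over all genes tested, and the median size of their changes, ignoring sign, was 0.49 against 0.48. A change of at least 2-fold was found for 1 member, Pdia4, and for 23.1% of all genes tested. In 9 of the 10 members the CPM values of the groups did not overlap, which was so for 73.6% of all genes tested.

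Small changes depended on how libraries were scaled. Scaling by library totals in place of TMM shifted log2 fold changes by -0.26 at the median gene. The shift was -0.20 on log2(TPM + 1) values, where TPM stands for transcripts out of 1e6 and takes transcript length into account. Both alternatives left Pdia4, Hspa5, Ern1 and Sel1l higher and Xbp1, Atf6 and Dnajb9 lower. Hsp90b1 and Edem1 were called with TMM alone of these 3 scalings, and Herpud1 was called lower with library totals alone. The members thus gave 6 higher and 3 lower with TMM, 4 and 4 with library totals, and 4 and 3 in TPM. Of all genes tested, library totals called 22.5% higher and 51% lower, and TPM called 23.5% higher and 43.2% lower.

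**Figure D1:**
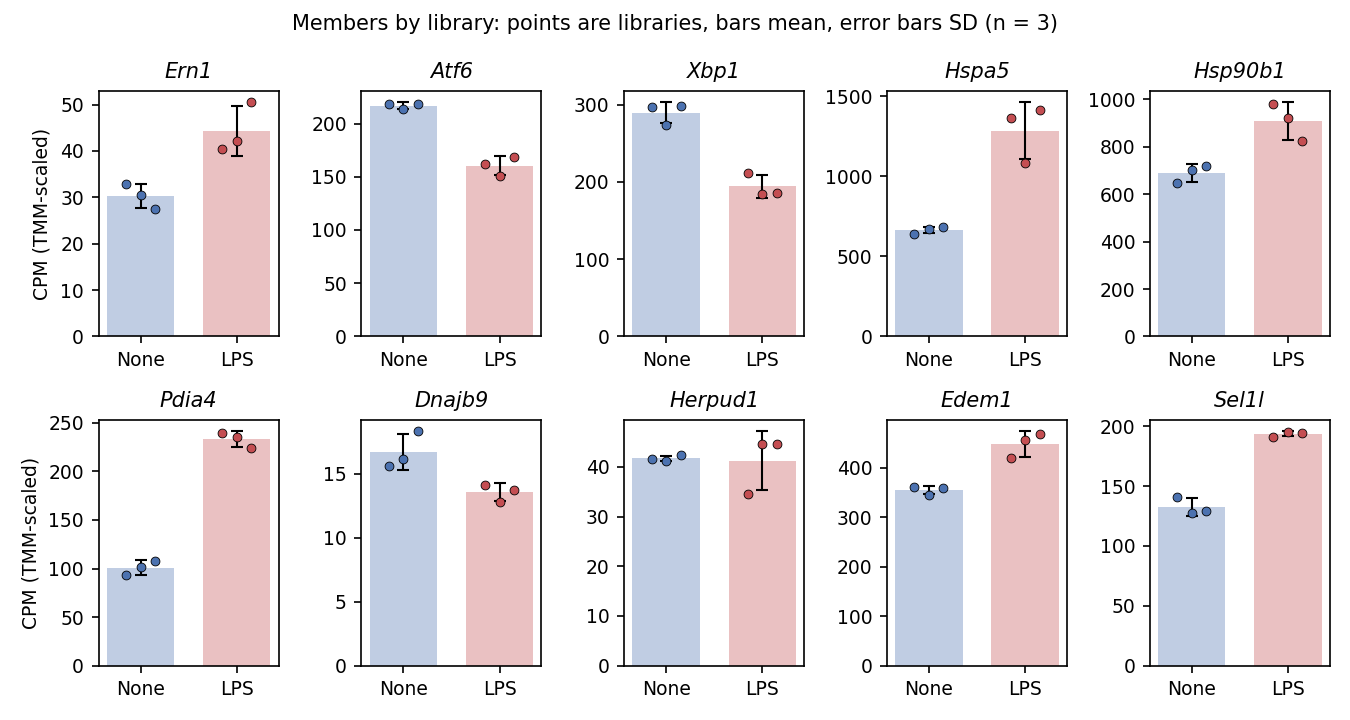
CPM on TMM-scaled library sizes (vertical axes, each from 0) of the 10 members in None and LPS cells, with 1 point per library, bars at the mean and error bars of 1 SD (n = 3). The groups are separate for every member except Herpud1, whose LPS libraries lie on both sides of its None libraries.

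**Figure D2:**
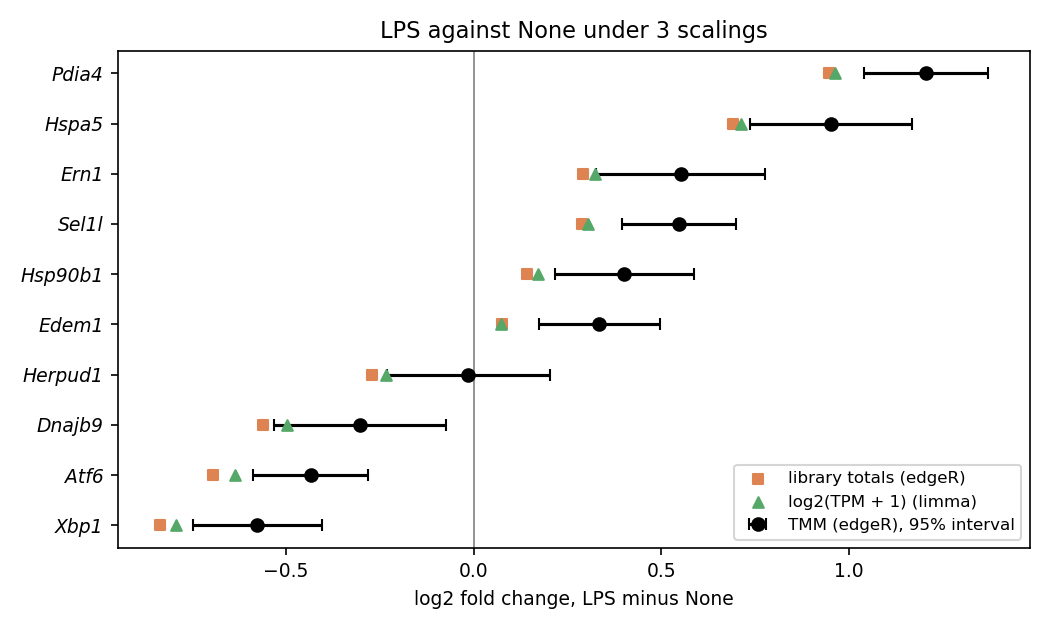
Log2 fold change of each member, LPS minus None (horizontal axis), with the 95% interval of the TMM fit (black), and the values with library totals (squares) and on log2(TPM + 1) (triangles). Both of the latter lie to the left of the TMM value for each member, and bring Hsp90b1 and Edem1 close to 0.

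Of the sensors, Ern1 encodes the ER membrane protein IRE1, whose cytosolic part cuts Xbp1 mRNA. Ern1 (chromosome 11, 106394650 to 106487796, GRCm38, minus strand) stood at 32.8, 30.5 and 27.6 CPM in the None libraries and at 40.5, 42.1 and 50.5 CPM in the LPS libraries. All LPS values lay above all None values, with LPS replicate 3 the highest. The log2 fold change of Ern1 was 0.55 (SE 0.10, adjusted p = 0.000428, edgeR), and it was 0.29 with library totals (adjusted p = 0.0221, edgeR) and 0.32 in TPM (adjusted p = 0.0336, limma).

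Atf6 encodes the sensor that travels to the Golgi when unfolded protein accumulates and is cut there to release a transcription factor. Atf6 (chromosome 1, 170704674 to 170867771, minus strand) stood at 219, 213 and 219 CPM in None and at 162, 151 and 168 CPM in LPS. The None libraries lay within 6 CPM of each other and every LPS library was below them. Atf6 fell by 0.43 on the log2 scale (SE 0.07, adjusted p = 0.000132, edgeR), with a 95% interval from -0.59 to -0.28, and its log2 fold change was -0.69 with library totals. Atf6 and Ern1, the 2 sensors among the members, therefore moved in opposite directions at the RNA level under each of the 3 scalings.

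Xbp1 encodes a transcription factor whose mRNA is cut by IRE1 at both ends of a short stretch. Removal of that stretch shifts the reading frame and yields the active form of the protein. The stretch is shown because the deposited value for Xbp1 is 1 number per gene, which does not tell the cut from the uncut mRNA. The stretch was found in the GENCODE M21 transcript Xbp1-201 as the only place where C, any base and GCAGC occur a second time 26 bases further on. It lies in coding sequence of exon 4 of 5 at chr11:5524279-5524304 (GRCm38, plus strand). The line below covers chr11:5524259-5524324, with the 26 bases between the cuts in capitals.
Xbp1-201: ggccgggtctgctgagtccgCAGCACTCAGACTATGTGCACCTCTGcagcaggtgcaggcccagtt
Each of the 3 protein-coding Xbp1 transcripts of that annotation contains these 26 bases.

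Xbp1 (chromosome 11, 5520659 to 5525893, plus strand) stood at 297, 274 and 298 CPM in None and at 212, 184 and 186 CPM in LPS. Every LPS library was below every None library. Xbp1 fell by 0.58 on the log2 scale (SE 0.08, adjusted p = 3.23e-05, edgeR), with a 95% interval from -0.75 to -0.41. With library totals the log2 fold change was -0.84, and in TPM it was -0.79. The value is for total Xbp1 RNA, and the share of the cut form was not measured.

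Hspa5 encodes BiP, the main Hsp70 chaperone of the ER lumen, which also binds the sensors and holds them inactive. Hspa5 (chromosome 2, 34771970 to 34777547, plus strand) stood at 640, 671 and 682 CPM in None and at 1361, 1083 and 1411 CPM in LPS. The None libraries were close together, while LPS replicate 2 was well below the other LPS libraries and still above every None library. The means were 664 ± 21.7 CPM in None and 1285 ± 177 CPM in LPS (SD, n = 3). Hspa5 rose by 0.95 on the log2 scale (SE 0.10, adjusted p = 3.05e-06, edgeR) and by 0.89 to 1.07 when each library was left out in turn.

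Hsp90b1 encodes GRP94, the Hsp90 of the ER, which folds Toll-like receptors and integrins among other client proteins. Hsp90b1 (chromosome 10, 86690840 to 86705509, minus strand) stood at 645, 701 and 718 CPM in None and at 980, 923 and 823 CPM in LPS. The groups did not overlap in CPM. They did overlap in TPM, at 314 to 354 in None and 337 to 410 in LPS. With TMM the log2 fold change was 0.40 (SE 0.09, adjusted p = 0.00109, edgeR), and the call was lost with library totals (0.14, adjusted p = 0.147, edgeR) and in TPM (0.17, adjusted p = 0.116, limma). Hsp90b1 is also the member whose reads were divided between genes: its deposited counts were not whole in the 3 None libraries, whereas the other 57 of the 60 member values were whole. The pseudogene 1810014B01Rik overlaps it on the other strand, with 358 counts in None and 120 in LPS against 39335 and 37919 for Hsp90b1. On the same strand it is overlapped by Gm15344 (8 counts in None and 8 in LPS) and Gm25745 (15 and 1). Which gene shares reads with Hsp90b1 was not tested.

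Pdia4 encodes ERp72, a protein disulfide isomerase that forms and rearranges disulfide bonds. Pdia4 (chromosome 6, 47796141 to 47813430, minus strand) stood at 93.5, 101 and 108 CPM in None and at 239, 236 and 224 CPM in LPS. The lowest LPS library was thus more than 2 times the highest None library. Pdia4 rose by 1.21 on the log2 scale (SE 0.08, adjusted p = 3.22e-08, edgeR), with a 95% interval from 1.04 to 1.37, and by 0.95 with library totals. Of all genes tested, 8.86% had a higher log2 fold change than Pdia4 and 11.8% a higher one than Hspa5.

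Dnajb9 encodes ERdj4, a J-domain protein that stimulates BiP and helps it to bind and quiet IRE1. It is a weakly expressed member, and Dnajb9 (chromosome 12, 44205559 to 44210326, minus strand) stood at 15.6, 16.2 and 18.3 CPM in None and at 14.1, 12.8 and 13.7 CPM in LPS. The groups were separate by less than 2 CPM. Dnajb9 fell by 0.30 on the log2 scale (SE 0.11, adjusted p = 0.0216, edgeR). The call was lost with DESeq2 (adjusted p = 0.0935), without None replicate 3 (-0.23, adjusted p = 0.114, edgeR) and without LPS replicate 2 (-0.26, adjusted p = 0.0773, edgeR), and under the alternatives that kept it the adjusted p ran up to 0.0464.

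The degradation genes differed from each other. Sel1l encodes the adaptor of the ubiquitin ligase Hrd1 in the ER membrane, and Sel1l (chromosome 12, 91806043 to 91849157, minus strand) stood at 141, 128 and 129 CPM in None and at 191, 195 and 195 CPM in LPS. The LPS libraries agreed within 4 CPM and lay above all None libraries. Sel1l rose by 0.55 on the log2 scale (SE 0.07, adjusted p = 1.7e-05, edgeR), and by 0.29 with library totals, where it was still called.

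Edem1 encodes a mannosidase-like protein that marks misfolded glycoproteins for removal. Edem1 (chromosome 6, 108828641 to 108859356, plus strand) stood at 361, 345 and 359 CPM in None and at 419, 456 and 468 CPM in LPS. All LPS values lay above the None values in CPM. In TPM the groups overlapped, at 84.3 to 87.5 in None and 84.8 to 93.2 in LPS. Its log2 fold change was 0.33 (SE 0.07, adjusted p = 0.00143, edgeR), and it was 0.08 with library totals and 0.07 in TPM, where it was not called (adjusted p = 0.362 by edgeR and 0.363 by limma).

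Herpud1 encodes an ER membrane protein that assembles the Hrd1 complex and is commonly used as a marker of the unfolded protein response. Herpud1 (chromosome 8, 94386438 to 94395377, plus strand) stood at 41.7, 41.1 and 42.3 CPM in None and at 34.5, 44.7 and 44.7 CPM in LPS. The None libraries were nearly equal, LPS replicate 1 was below them and the other LPS libraries above. The log2 fold change was -0.01 (SE 0.10, adjusted p = 0.903, edgeR), with a 95% interval from -0.23 to 0.20, or 14.9% lower to 15.1% higher. With library totals it was -0.27 and called (adjusted p = 0.0358, edgeR). In TPM every LPS library (22.2 to 29.8) was below every None library (31.3 to 31.4), and the difference did not pass the test (-0.23, adjusted p = 0.089, limma).

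Ratios within a library do not depend on the scaling between libraries, and the members were therefore also set against Hspa5. For every 100 Hspa5 counts there were on average 43.7 Xbp1 counts in None and 15.3 in LPS, and 32.7 Atf6 counts in None and 12.6 in LPS. The log2 ratio to Hspa5 fell by 1.52 for Xbp1, by 1.38 for Atf6, by 1.24 for Dnajb9 and by 0.97 for Herpud1. It fell by 0.61 for Edem1, 0.54 for Hsp90b1, 0.40 for Ern1 and 0.39 for Sel1l, and it was higher for Pdia4 alone, by 0.27. In each of the 9 ratios the LPS libraries did not overlap the None libraries. Because Hspa5 itself rose, this was common: of all other genes tested, 79.8% had a ratio to Hspa5 that was lower in LPS with no overlap and 8.02% one that was higher, beside 8 and 1 of the 9 members. The gap for Pdia4 was narrow, from -2.657 in the highest None library to -2.656 in the lowest LPS library. The exact two-sided permutation test gave p = 0.1 for each of the 9, also after Benjamini-Hochberg adjustment, which is the smallest p that 3 against 3 libraries can give. Since the 9 ratios share Hspa5, they also share its spread, and LPS replicate 2, with the lowest Hspa5 level of its group, had the highest of the LPS ratios in all 9. Without that library the difference for Pdia4 was 0.14 in place of 0.27.

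**Figure D3:**
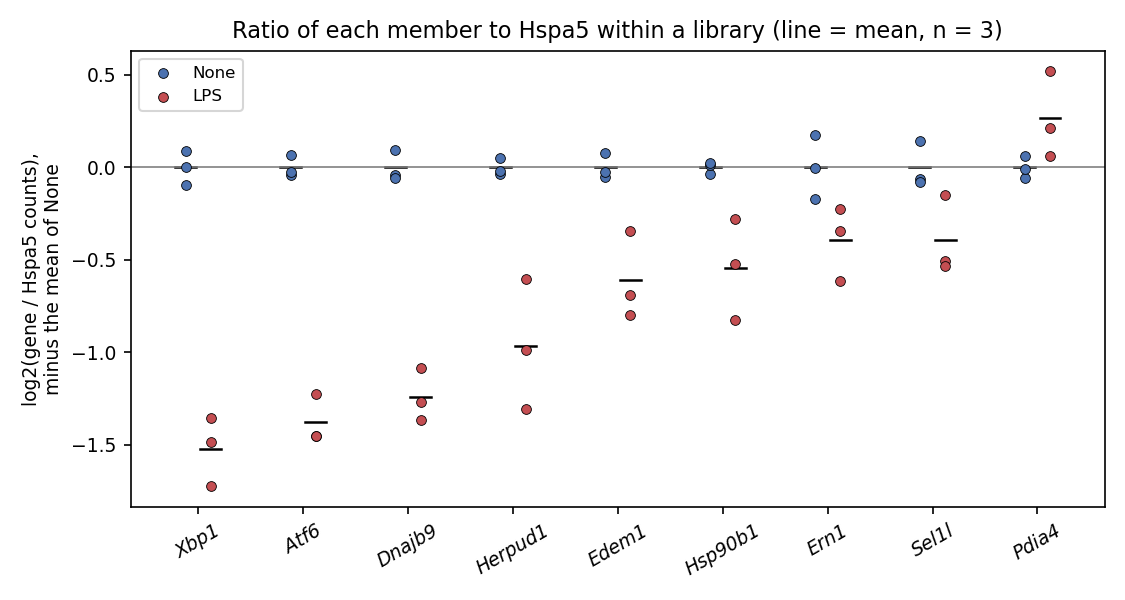
Log2 ratio of each member's counts to Hspa5 counts in the same library, minus the mean of the None libraries (vertical axis), with 1 point per library and a line at the mean (n = 3). The LPS points are lower than the None points for 8 members, most for Xbp1 and Atf6, and higher for Pdia4.

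Levels between genes were compared in TPM. In None cells the order from high to low was Hspa5 (405 ± 22.1 TPM), Hsp90b1 (338 ± 20.9), Xbp1 (204 ± 6.82), Edem1 (85.5 ± 1.75), Pdia4 (58.3 ± 3.80), Atf6 (38.0 ± 0.561), Herpud1 (31.4 ± 0.0866), Sel1l (30.7 ± 1.98), Dnajb9 (10.3 ± 1.63) and Ern1 (6.37 ± 0.703; SD, n = 3). Herpud1 and Sel1l overlapped between libraries, and the other neighbours in the order did not. In LPS cells Hspa5 (668 ± 90.9 TPM) and Hsp90b1 (382 ± 38.8) still led, and Pdia4 (114 ± 7.08) had reached the level of Xbp1 (117 ± 8.37), with overlapping libraries. Atf6 (24.1 ± 0.702) overlapped Herpud1 (26.7 ± 4.04), and Dnajb9 (6.95 ± 0.548) lay below Ern1 (8.21 ± 0.737). Ern1 stood at 1.58 TPM for every 100 TPM of Hspa5 in None and at 1.24 in LPS, Dnajb9 at 2.55 and 1.06, and Atf6 at 9.39 and 3.64. Hspa5, Hsp90b1 and Pdia4 together made up 66.3 ± 1.63% of the members' summed TPM in None and 78.8 ± 1.44% in LPS, with no overlap between libraries (64.8% to 68.0% against 77.6% to 80.4%). This set leaves out Dnajb9, the remaining member among the chaperones and folding enzymes, which was lower in LPS. Its 3 genes were each called higher with TMM, so the larger share is not a separate result. By mean TPM, the share of Hspa5 went from 33.6% in None to 45.3% in LPS and that of Pdia4 from 4.83% to 7.76%. The share of Hsp90b1 went from 28.0% to 25.9%, and that of Xbp1, outside the set, from 16.9% to 7.95%. The summed TPM of all 10 members was 1207 ± 32.0 in None and 1476 ± 93.3 in LPS.

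**Figure D4:**
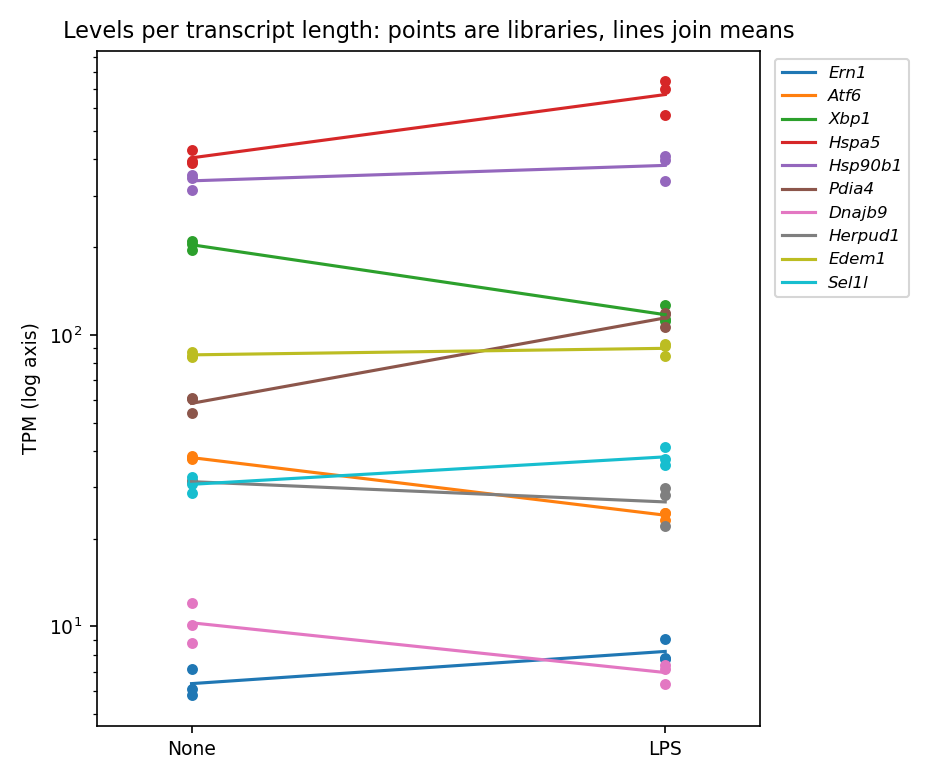
TPM of the 10 members on a log axis in None and LPS cells, with 1 point per library and lines joining the group means. The line of Pdia4 climbs to that of Xbp1, which falls from 204 to 117 TPM.

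Promoters were searched for the elements through which the pathway is known to act. The ER stress response element (ERSE) was searched as CCAAT, 9 bases of any kind and CCACG, the related ERSE-II as ATTGG, any base and CCACG, and the unfolded protein response element (UPRE) as TGACGTGG, each on both strands. The RefSeq promoter table (GRCm38.p6), with 250 bases before and 50 after each start, held 9 of the 10 members. An ERSE was found for Hspa5 and Hsp90b1, the latter with 2 matches, and in 0.119% of all 32851 entries. An ERSE-II was found for Herpud1 and in 0.0365% of entries, and the UPRE for no member and in 0.676% of entries. As these elements are known from genes of this pathway, their presence in members is no independent result, and enrichment was not tested. The part CCACG alone, which ERSE and ERSE-II contain, was found for 8 of the 9 members and in 32.8% of entries. The matches are shown in capitals because these 3 genes are the members with a full element, and they run 5′ to 3′ on the strand of the gene. The printed stretches, each a match with its flanking bases, lie at chr2:34772020-34772048 (plus strand, 70 to 42 bases before the RefSeq start, and inside the gene as the deposited table bounds it) for Hspa5, at chr8:94386367-94386397 (plus strand, 62 to 32 bases before the start) for Herpud1, and at chr10:86705523-86705666 (minus strand, 222 to 79 bases before the start) for Hsp90b1.
Hspa5: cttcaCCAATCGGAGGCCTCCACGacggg
Herpud1: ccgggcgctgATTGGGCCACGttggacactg
Hsp90b1: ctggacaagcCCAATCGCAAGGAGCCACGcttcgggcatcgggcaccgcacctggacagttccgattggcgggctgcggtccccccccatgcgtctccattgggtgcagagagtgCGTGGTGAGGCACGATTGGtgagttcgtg
In Hsp90b1 the second match reads on the opposite strand, so that its CCACG appears as CGTGG. Hspa5 and Hsp90b1, with an ERSE, had log2 fold changes of 0.95 and 0.40, and Herpud1, with an ERSE-II, one of -0.01. Pdia4, with the highest fold change of the members, had no full element in this window.

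The rest of the pathway was described with 7 lists of 112 further genes, of which 106 were tested. With TMM 65 were higher and 13 lower, beside 34% and 35.1% of all genes, and their median log2 fold change was 0.35. Scaling by library totals gave 41 higher and 31 lower, beside 22.5% and 51% of all genes, and TPM gave 46 and 24, beside 23.5% and 43.2%. Under all 3 scalings 40 were called higher and 13 lower, and no gene was called in opposite directions. The shares of all genes with the same call under all 3 scalings were not counted. They can be at most 22.5% higher and 35.1% lower, the smallest share given above for each direction.

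Of 19 other ER chaperones and cochaperones, 12 were higher and 3 lower (library totals gave 11 and 6, TPM 11 and 5), with a median of 0.58. The peptidyl-prolyl isomerase Fkbp11 rose most (2.17, from 1.99 to 9.01 CPM), followed by Creld2 (1.54) and Sdf2l1 (0.95), which are both known targets of the response. Hyou1, the nucleotide exchange factor of BiP, rose by 0.90, and calreticulin (Calr) by 0.58. Cnpy3, which helps GRP94 to fold Toll-like receptors, fell by 0.55, as did its relative Cnpy2 by 0.67 and the translocon-associated Serp1 by 0.17. The call of Serp1 (adjusted p = 0.0389, edgeR) was lost in 8 of 13 alternatives, among them the 6 that each leave out a library, with an adjusted p of up to 0.109. Of 15 disulfide isomerases and oxidases, 9 were higher and 2 lower (library totals gave 7 and 4, TPM 6 and 4). Ero1a, the oxidase that recharges the disulfide isomerases, rose 6.80-fold from 253 to 1721 CPM, Pdia5 rose by 1.59 and Qsox1 by 1.00 on the log2 scale, while Erp29 fell by 0.79 and Txndc11 by 0.44.

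Among other sensors and regulators 8 of 16 were higher and 3 lower (library totals gave 4 and 7, TPM 6 and 6). The stress-induced factor gene Ddit3, which encodes CHOP, rose by 2.51 from 4 to 22.9 CPM, the proteasome gene activator Nfe2l1 by 1.58 and the ER membrane protein gene Wfs1 by 0.94. The lower ones were Mbtps1 (-0.88), the Golgi protease that makes the first cut in Atf6, Rtcb (-0.50), the ligase that joins the ends of cut Xbp1 mRNA, and Eif2ak3 (-0.31), the sensor PERK. They were lower under all 3 scalings, and the call of Eif2ak3 was lost without None replicate 2 (-0.24, adjusted p = 0.0837, edgeR). Atf4, the factor translated when PERK is active, was higher at 0.75 and remained called under all 3. Atf6b, the relative of Atf6, was higher at 0.39 with TMM and not called with library totals (0.13) or in TPM (0.08).

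Of 23 other degradation genes, 12 were higher and 2 lower (library totals gave 6 and 8, TPM 8 and 4). Herpud2, the relative of Herpud1, rose by 0.87, Edem2 by 0.75 and the ubiquitin-conjugating enzyme Ube2j2 by 0.71. Erlec1 (-0.50) and Rnf139 (-0.43) fell. The ligase Hrd1 itself (Syvn1), the partner of Sel1l, had means of 43.8 CPM without and 46.4 CPM with LPS and did not pass the test (0.08, adjusted p = 0.519, edgeR). Of 18 translocon and signal peptidase genes, 14 were higher and 0 lower (library totals gave 7 and 1, TPM 8 and 1), with Srpr at 0.89, Sec61g at 0.86 and Srp54a at 2.22. The Srp54a value is uncertain, because reads may be shared with its near-identical copies Srp54b and Srp54c. Of 12 genes of N-glycosylation and the calnexin cycle, 9 were higher and 2 lower (library totals gave 5 and 3, TPM 6 and 2), with Ostc at 0.77 and Rpn1 at 0.61, and with Uggt2 at -2.52 from a low level of 0.997 CPM in None.

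Besides Xbp1, IRE1 is reported to cut other mRNAs, and 3 of 6 genes listed for this were expressed enough to be tested. Bloc1s1 was not called (-0.18, adjusted p = 0.147, edgeR) and was lower by the test when scaled by library totals (-0.44) or in TPM (-0.38). Pdgfrb fell by 1.91, from 3.09 to 0.813 CPM, and Hgsnat rose by 1.87, from 54.6 to 199 CPM. The 3 genes thus showed no common direction.

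**Figure D5:**
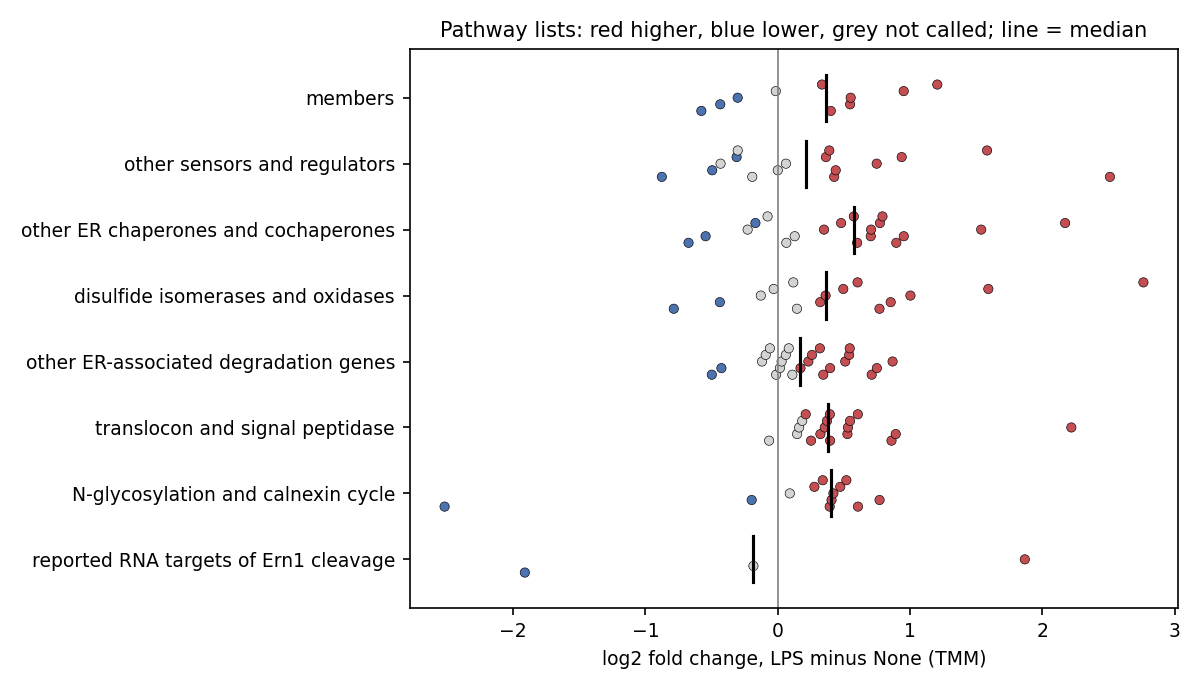
Log2 fold change, LPS minus None with TMM (horizontal axis), of the tested genes of each list, with 1 point per gene, red for called higher, blue for called lower and grey for not called, and a black line at the list's median. The medians lie to the right of 0 for the members (0.37) and for 6 of the 7 other lists.

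By Pearson's r of log2 CPM over the 6 libraries, the genes most like Xbp1 were Ears2, Gm15500 and Cd302 (r from 0.9983 to 0.9993), and those most like Hspa5 were Gabarap, Prnp and Tgoln1 (0.9982 to 0.9988). These values describe the difference between the groups that the 6 libraries share: 20.7% of 9803 genes had an r over 0.9 with Xbp1 and 27.6% with Hspa5.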

How the data were processed

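RNA of RAW-Blue cells was sequenced after total RNA extraction, with low-quality reads removed by SOAPnuke, per the labels' protocols. STAR 2.7.10a, RSEM 1.3.1 and the build GRCm38 are listed in the submitters' processing notes. The deposited tables hold expected counts and TPM for 50600 genes per the file headers. Whether the kit keeps the strand is not stated in the labels, so genes overlapping on the other strand cannot be told apart. A further 12 library columns of each file match no label and were not used. LPS-PjELNs was not analysed here.

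Expected counts were rounded, filtered with filterByExpr (count minimum 10, total at least 15) and scaled by TMM in edgeR 4.0.16 (R 4.3.3). All 11916 genes were fitted with glmQLFit with group as the term and tested two-sided with glmQLFTest, with Benjamini-Hochberg adjustment over all of them and a threshold of 0.05. The steps were tested on simulated data in which few genes changed, with as many raised as lowered. That simulation does not test the scaling between libraries where most genes change, as here. SE is the log2 fold change divided by the root of F, and intervals are 95%. Ratios used a pseudocount of 0.5 counts. Alternatives were RLE factors, library totals, DESeq2 1.42.0, other filters, limma 3.58.1 on log2(TPM + 1), a replicate block and leaving out each library. Deposited start coordinates count from 0 and were raised by 1.

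The members, lists, motifs and tests were chosen with earlier results of these data known. All 152 list entries were found, 2 by an older symbol. The text names all members, in each list the 3 called genes that changed most, and the 3 genes most like Xbp1 and Hspa5. Hyou1, Calr, Syvn1, Bloc1s1, Atf4, Atf6b, the macrophage markers with values, the lower genes of each list named outside these, Dcn and the marker genes at 0 were chosen after their values were seen. Replicates of a group differed by more than sampling noise (chi-square of 3.15 to 16.4 for each degree of freedom). Protein features of the members were planned and not run. One marker gene is not reported here.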

Additional observations from a re-analysis of the deposited data

How the results depend on the processing

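Over all genes 8232 were called, and 7507 to 8777 under the alternatives. Hspa5, Pdia4, Ern1, Sel1l, Xbp1 and Atf6 kept their direction and their call under all 13 alternatives, and Hsp90b1, Edem1 and Dnajb9 kept their direction. Herpud1 changed sign with RLE factors (0.0068), with DESeq2 (0.0069) and without LPS replicate 1 (0.10), in each case uncalled, and ran from -0.0677 to 0.0991 when each library was left out. For the 112 other pathway genes the count called higher went from 65 to 41 with library totals, and the count called lower from 13 to 31 with library totals and 24 on TPM values. Without each library in turn these counts ran from 61 to 66 and from 10 to 15. With the replicate block 8362 genes were called and no member's call changed. Same-numbered libraries had correlations of 0.0825, -0.0198 and 0.0095 in their deviations from the group means. None replicate 1 correlated best with its own number, the highest value of any pair, and None replicate 2 and None replicate 3 did not. Whether same-numbered libraries were handled together is not stated in the labels, and correlations from 3 libraries a group cannot tell. For genes near Dnajb9's level, below 20 CPM, 3 libraries a group and counts of 176 to 354 for each library limit what can be told. TPM rescaled by the TMM factors gave a summed level of the members of 1103 in None and 1616 in LPS. Searching only the 250 bases before the start took CCACG from 8 members to 7.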

Other observations

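All genes that carry the same promoter elements, members and listed genes included, were counted after the values were seen. An ERSE was held by 37 genes of the RefSeq promoter table, 15 of them were tested, and 9 were called higher and 3 lower in LPS, with a median log2 fold change of 0.40, beside 34% higher and 35.1% lower of all genes tested. Of these 15, 9 are members or in the pathway lists, so the counts are not independent of those given for the pathway above. The higher ones were the ER genes Creld2 (1.54), Hspa5 (0.95), Pdia6 (0.85), Calr (0.58), Hsp90b1 (0.40), the oxidase gene Ero1b (0.32) and the mannosyltransferase gene Alg12 (0.40), and also Adcy3 (1.86) and Xlr3a (0.60). The lower ones with TMM were Acacb (-1.03), Pan2 (-0.42) and Hnrnpa3 (-0.21). With library totals or in TPM the calls of Hsp90b1, Ero1b, Alg12 and Xlr3a were lost, and that of Hnrnpa3 was lost without LPS replicate 1, LPS replicate 3, None replicate 2 or None replicate 3. The chaperone genes Canx (0.07) and Dnajc3 (-0.23) and the ligase gene Syvn1 (0.08) hold the element and were not called with TMM. Dnajc3 was called lower with library totals (-0.49, adjusted p = 0.000835, edgeR) and in TPM (-0.42, adjusted p = 0.0145, limma). It was also called lower with the replicate block (-0.24, adjusted p = 0.025, edgeR). Canx was called lower with library totals (-0.19, adjusted p = 0.0276, edgeR) and not in TPM (-0.14, adjusted p = 0.109, limma). Of 8 tested genes with an ERSE-II, 3 were higher, namely the calcium-binding protein gene Nucb1 (1.21), Krtcap2, a subunit of the oligosaccharyltransferase (0.73), and the BiP cochaperone gene Dnajb11 (0.70), and Lrif1 was lower (-1.58). Of 94 tested genes with a UPRE, 40 were higher and 31 lower, with a median of 0.06.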
